A study of Mus musculus with 34 samples.

Results

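The Wnt pathway genes described here are 49 genes, picked by name, of the 52636 genes in the deposited expression table. They comprise 18 ligands, 12 receptors (the 10 Frizzled genes, Lrp5 and Lrp6), 5 genes of the R-spondin branch (4 R-spondins and their receptor Lgr5), 9 secreted inhibitors and 5 nuclear factors or feedback targets. All 49 were found in the table by symbol. The list was chosen with earlier results of these data known. RNA was sequenced from mouse embryonic stem cells (ESCs) of strain 129S2/C57Bl6J with a mutation of Handsdown (Hdn), a long non-coding RNA, or without it, and mutant titles read Hdn null. The wild-type titles give the line name F1(G4), which the mutant titles do not carry. Each genotype gave undifferentiated cells and cells at day 3, day 4, day 5 and day 6 of a differentiation driven by 20 ng/mL BMP4, so there are 10 groups of 3 libraries. Per the labels' protocols, feeder cells were removed from the ESCs of both genotypes, 2i medium was used for their culture, and differentiation started from hanging drops that were later plated, without serum, on fibronectin and given BMP4. The labels do not state the sequence change of the mutant, the number of mutant clones or whether replicates are separate cultures, so p-values measure the spread between these libraries, which may be technical. The series text names Brachyury mutants and the growth protocol names dissected hearts, where every sample label used here names Hdn cells or wild-type cells in culture; the sample labels were followed.

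Wnt proteins are secreted signals that bind Frizzled receptors and the co-receptors Lrp5 and Lrp6. In the canonical branch, binding stops the destruction complex, which contains Axin, APC and the kinase GSK3, from degrading beta-catenin, and beta-catenin then enters the nucleus and activates genes with TCF and LEF factors. In the mouse embryo Wnt3 is required for the primitive streak, and later, non-canonical ligands such as Wnt5a and Wnt11 act in the mesoderm of the heart. The 2i medium of the ESCs contains an inhibitor of GSK3. Pathway activity was not measured in these cells, and the part of the inhibitor in the ESC levels was not tested. The stage and the change of medium cannot be told apart in the steps from ESCs to day 3.

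Libraries had an inferred depth of 43.3 M to 68.4 M reads (median 57.2 M). The values below are scaled RPKM, which are the deposited RPKM (reads scaled to gene length and library size) divided by 1 size factor per library, and "±" is the SD of 3 libraries. A gene was called when its Benjamini-Hochberg adjusted p in limma over all 14196 tested genes was under 0.05 and its log2 change, on log2(scaled RPKM + 0.5), was at least 1 in size. The words rose, fell, higher and lower are kept for such calls. In RNA of whole cultures, fewer cells of a type and less RNA per cell cannot be told apart. The Hdn transcript, listed as 5033428I22Rik, lay at 0 to 0.0122 RPKM as deposited in mutant libraries on day 6, against 0.061 to 0.336 in wild type, and at 0 in ESCs of both genotypes. The Y-linked Eif2s3y lay at 5.29 to 16.7 RPKM in mutant ESCs, against 0.227 to 0.437 in wild-type ESCs and 3.29 to 4.00 in wild type on day 3. On days 4 to 6 it lay at 3.26 to 4.81 in wild type and at 5.68 to 9.77 in mutants. The labels mention neither this difference between the ESC cultures nor that between wild-type ESCs and later wild-type stages. The part of these differences in the ESC results and in the wild-type step from ESCs to day 3 was not tested. Mutant day 4 replicate 3, day 5 replicate 3 and all 3 mutant day 6 libraries held mature heart muscle and adult red cell transcripts. Their 8 heart muscle markers summed to 145 to 396 scaled RPKM in mutants on day 6, against 3.13 to 5.31 in wild type. Wild-type day 6 replicate 3 also held adult red cell transcripts, with a sum of 49.3 over 5 markers, and fibroblast transcripts such as Col3a1 at 6.95 and Lum at 3.36 scaled RPKM. In mutants on day 6 the red cell sum was 249 to 720, with Col3a1 at 4.96 to 20.7 and Lum at 2.89 to 13. Without the 5 mutant libraries no mutant value remains on day 6, and results on days 4 and 5 that change without them are given as such. Wild-type replicate 1 on days 3 and 4 had less of the primitive streak marker T than replicates 2 and 3. T stood at 9.40 beside 65 and 123 scaled RPKM on day 3, and at 10.9 beside 51.5 and 86.4 on day 4. On both days this replicate also had the lowest wild-type Wnt3, Wnt5a, Rspo3 and Lef1. The part of the streak transcripts in these levels was not tested.

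Of the 49 genes, 36 passed the filter of 1 scaled RPKM in at least 3 libraries and were tested, and 13 lay below it. The members called between mutant and wild-type cultures were not the same at each stage. On day 3 the mutants had less of the ligands Wnt6, Wnt7a and Wnt7b and of the inhibitor Dkk1, and more Wnt8a and Rspo3. From day 4 to day 6 they had more Wnt3, Wnt5a and Wnt9b and more of the inhibitor Dkk3. On days 5 and 6, Wnt11, the receptor Fzd4 and Dkk1 were also higher in the mutants. Some of these calls did not hold when 1 library was left out, among them Wnt6, Wnt8a and Rspo3 on day 3 and Wnt3 on day 4.

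The counts follow the same course. In ESCs, 1 of the 36 tested members was higher and 3 were lower in mutants, beside 8.55% and 3.13% of all tested genes. On day 3, 2 members were higher and 4 lower, beside 0.873% and 2.48% of all genes. On day 4, 6 were higher and 1 was lower (2.37% and 2.81% of all genes). On day 5, 9 were higher and 1 was lower (2.42% and 3.59%), and on day 6, 9 were higher and 0 lower (3.66% and 4.12%). The 0 on day 6 comes from limma with the size threshold, and 2 members, Wnt7b and Fzd5, had negative changes there at an unadjusted p, and also at an adjusted p, under 0.05. As a share of the 36, the members higher on days 5 and 6 were 25% at each stage, several times the share of all genes. The median log2 change of the members was -0.17 in ESCs, 0.10 on day 3, 0.11 on day 4, 0.53 on day 5 and 0.61 on day 6, and that of all tested genes was -0.10, -0.01, 0.00, 0.00 and 0.01. Averaged over the 5 stages, Wnt5a and Dkk3 were higher and Wnt7b was lower, beside 0.768% and 1.89% of all genes, and with a pseudocount of 1 the Wnt5a and Dkk3 changes were 0.94 and 0.93. The mutant difference depended on stage for 17 of the 36 members (limma F test, adjusted p under 0.05). That count is near the background, as 42.2% of all genes did so.

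**Figure D1:**
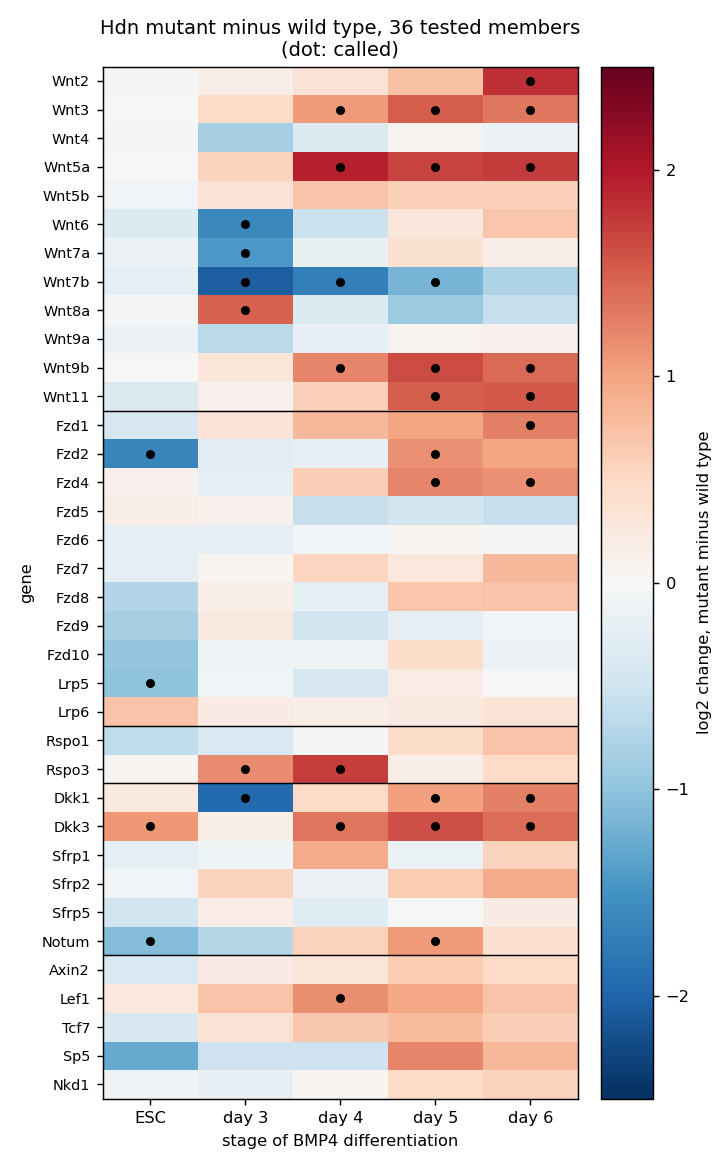
Each row is 1 of the 36 tested Wnt genes, grouped by role (ligands, receptors, R-spondins, secreted inhibitors, nuclear factors and targets), and each column is a stage. Colour gives the log2 change, mutant minus wild type (red for a positive change), and a dot marks a call. Dots on blue cells lie in ESCs and on day 3 except for Wnt7b, and dots on days 5 and 6 lie on red cells except for Wnt7b on day 5.

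The step out of the ESC state changed more of these genes than any mutant comparison did, as it did for all tested genes. Between ESCs and day 3, 14 members rose and 7 fell in mutants (18.2% and 21.6% of all genes). In wild type 13 rose and 6 fell (17.4% and 20.3%). As shares of the 36, those that rose were 38.9% in mutants and 36.1% in wild type. Those that fell were 19.4% and 16.7%, below the shares of all genes. Between day 3 and day 4, 9 rose and 3 fell in mutants (4.83% and 3.54%), and in wild type 1, Rspo3, rose and 0 fell (1.88% and 0.465%). The 0 in wild type is again from limma with the size threshold, and 8 members had negative changes at an unadjusted p under 0.05, of which 2, Wnt7a and Fzd10, had an adjusted p under 0.05. Between day 4 and day 6, 10 rose and 3 fell in mutants (5.46% and 2.74%), and 8 rose and 3 fell in wild type (3.94% and 1.76%). The difference between the genotypes in these counts was not tested as such. The wild-type step from ESCs to day 3 also spans the Eif2s3y difference given above, whose part was not tested.

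**Figure D2:**
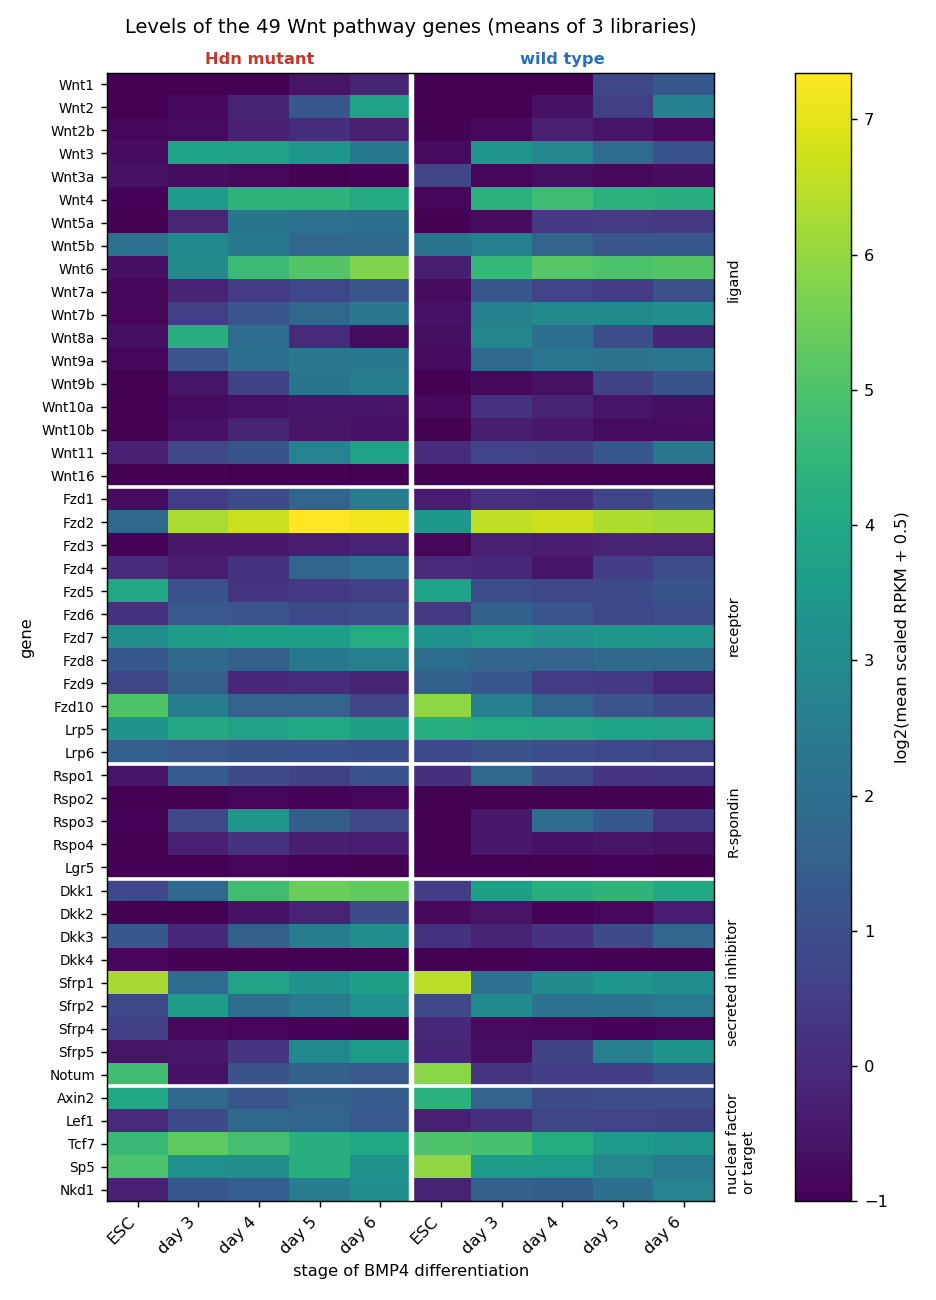
Each row is 1 of the 49 Wnt genes, grouped by role, and each column is a group, with mutants on the left and wild type on the right, from ESCs to day 6. Colour gives log2(mean scaled RPKM + 0.5) over 3 libraries. In both genotypes Fzd10, Sfrp1, Notum, Axin2 and Sp5 are brightest in ESCs, and Fzd2, Wnt4, Wnt6 and Dkk1 are bright from day 3 or 4 on.

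The ligands were nearly silent in ESCs apart from Wnt5b. The 18 ligands together summed to 5.08 ± 1.75 scaled RPKM in mutant ESCs and 6.90 ± 1.03 in wild-type ESCs, of which Wnt5b, a non-canonical ligand, made up 78.8% in mutants and 59.5% in wild type on average. By day 3 the sum was 63.1 ± 8.22 in mutants and 77.8 ± 5.95 in wild type, and on day 6 it was 125 ± 24.1 in mutants and 86.6 ± 25.1 in wild type. The make-up of the sum on day 3 differed between the genotypes: Wnt8a, Wnt3 and Wnt4 led in mutants with 30.4%, 21.5% and 17.2%, and Wnt6, Wnt4 and Wnt3 led in wild type with 29.7%, 25.5% and 12.3%. Wnt6 and Wnt4 led in both genotypes from day 4 on. In the step from ESCs to day 3, Wnt3, Wnt4, Wnt6, Wnt7b, Wnt8a and Wnt9a rose in both genotypes, Wnt7a passed in wild type and Wnt11 in mutants. The mutant Wnt11 change dropped under 1, to 0.73 with a pseudocount of 1, 0.92 when all libraries were set to 1 sum, and 0.91 to 0.98 without mutant ESC replicate 2 or 3 or mutant day 3 replicate 3. The mutant Wnt7b change was 0.90 with a pseudocount of 1. Wnt4 had 8.62, 10.2 and 14.1 scaled RPKM in mutants on day 3, against at most 0.0391 in mutant ESCs, and 18.7, 24.5 and 16.4 in wild type on day 3, against at most 0.0638 in wild-type ESCs. The Wnt4 change was 4.43 in mutants and 5.21 in wild type (SE 0.23 each, adjusted p = 2e-14 and 1.3e-15), and the Wnt6 change was 3.57 in mutants and 4.84 in wild type (SE 0.49 each, adjusted p = 6.5e-07 and 5.4e-09).

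**Figure D3:**
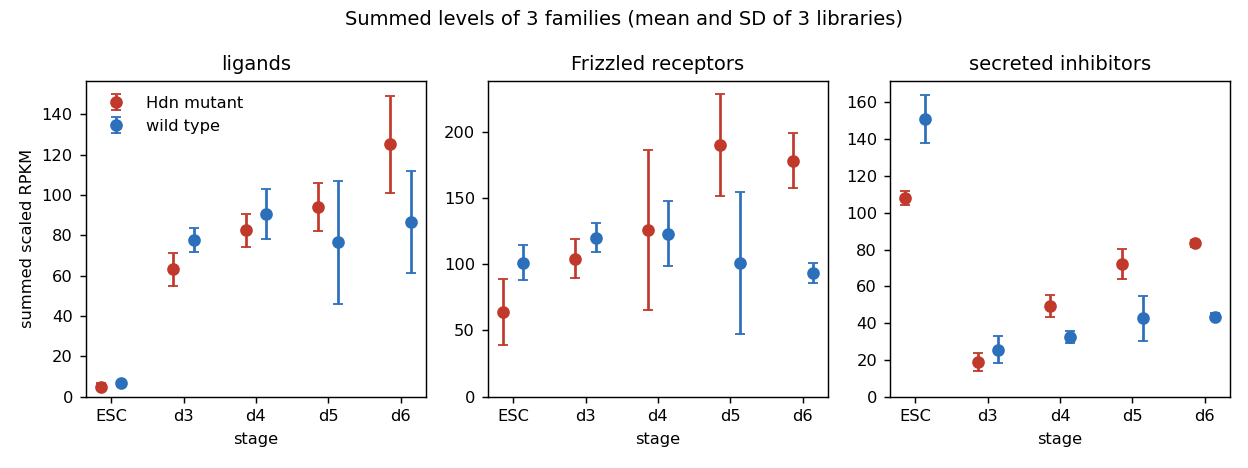
The 3 panels show the summed scaled RPKM of the 18 ligands, the 10 Frizzled receptors and the 9 secreted inhibitors, by stage, with mutants in red to the left of wild type in blue. Points are means and bars the SD of 3 libraries. Inhibitor sums are highest in ESCs in both genotypes, and on day 6 they are 83.4 ± 1.90 in mutants and 43.5 ± 1.85 in wild type.

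Wnt3 (chr11:103774175-103818021, GRCm38.p6), the ligand needed for primitive streak formation, rose by 4.51 in mutants and by 4.05 in wild type on day 3 (log2 scale, adjusted p = 3.5e-12 and 3e-11), against ESCs, where no library exceeded 0.136 scaled RPKM. On day 4 it stood at 12.5, 13.1 and 14.7 scaled RPKM in the mutant libraries, against 3.22, 6.62 and 10.5 in wild type. On day 5 the values were 9.85, 9.02 and 10.8 in mutants, against 2.10, 3.01 and 4.82 in wild type, and on day 6 they were 4.53, 4.70 and 4.96 in mutants, against 1.40, 1.31 and 2.23 in wild type. The genotypes did not overlap on any of these days. The log2 changes were 1.07, 1.51 and 1.31 (SE 0.31 each, adjusted p = 0.014, 0.00077 and 0.0023). The day 4 call did not hold without wild-type day 4 replicate 1 (0.65, adjusted p = 0.12), without the libraries that hold heart transcripts (1.00, adjusted p = 0.07), in a fit of just the 6 day 4 libraries (adjusted p = 0.14) and when all libraries were set to 1 sum, where the change was 0.99. On day 3 the levels overlapped, at 10.8, 10.2 and 20.5 in mutants and 6.34, 9.76 and 13 in wild type. Summed levels of 5 primitive streak markers were 90 to 173 scaled RPKM in mutants and 14.1 to 148 in wild type on day 4. The sum of 14.1 belonged to wild-type replicate 1, the library with the lowest wild-type Wnt3. The part of these markers in the Wnt3 difference was not tested.

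Wnt9b (chr11:103727362-103775272), a ligand known from kidney and face development, is the neighbour of Wnt3, and the gene spans overlap by 1098 bases. The mutant libraries had 0.591, 1.12 and 1.43 scaled RPKM on day 4, against 0.185, 0.113 and 0.148 in wild type, which correspond to 140, 270 and 385 reads in mutants against 52, 31 and 38 reads in wild type. Mutants had 4.15, 4.86 and 3.56 on day 5, against 1.37, 0.618 and 1.11 in wild type, and 9.10, 4.22 and 2.73 on day 6, against 3.29, 1.21 and 0.671 in wild type. The ranges were apart on days 4 and 5 and overlapped on day 6. Wnt9b was higher in mutants at all 3 stages, with log2 changes of 1.22, 1.64 and 1.42 (SE 0.32 each, adjusted p = 0.0081, 0.00057 and 0.0017). The day 4 change was 0.81 with a pseudocount of 1, and the day 6 call did not hold without mutant day 6 replicate 1 (0.99) and in a fit of just the 6 libraries involved (adjusted p = 0.12). Since the handling of reads in overlapping genes is not given, the share of reads assigned to Wnt3 and to Wnt9b in their overlap is uncertain. Between day 4 and day 6 Wnt3 fell in mutants and wild type (log2 changes -1.41 and -1.65). Wnt9b rose in both (1.81 in mutants and 1.60 in wild type), and the wild-type rise had an adjusted p of 0.051 in a fit of just the 6 libraries involved.

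Wnt5a (chr14:28504543-28527448), a non-canonical ligand of gastrulating and cardiac mesoderm, showed the largest ligand difference on day 4. Its levels were 2.97, 3.75 and 5.91 scaled RPKM in mutants on day 4, against 0.125, 0.976 and 1.30 in wild type. On day 5 they were 3.57, 3.38 and 4.73 in mutants, against 0.490, 0.948 and 1.21 in wild type, and on day 6 they were 4.02, 4.02 and 3.13 in mutants, against 0.414, 0.661 and 1.35 in wild type. Every mutant value lay above every wild-type value from day 3 on. The log2 changes were 1.94, 1.69 and 1.75 on days 4, 5 and 6 (SE 0.31 each, adjusted p = 8.3e-05, 0.0003 and 0.00015), and the average over the 5 stages was 1.19 (SE 0.14, adjusted p = 2e-07). In mutants Wnt5a rose from day 3 to day 4 by 2.37 (adjusted p = 5.9e-06), and in wild type the same step was 0.98 (adjusted p = 0.055) and was not called. In a fit of just the 6 day 4 libraries, the difference had an adjusted p of 0.052.

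Wnt11 (chr7:98835084-98854747), a non-canonical ligand with a role in cardiac differentiation, separated the genotypes a day later. On day 4 its ranges overlapped, with 1.69, 2.44 and 1.08 scaled RPKM in mutants and 1.83, 0.575 and 0.662 in wild type. A day later the mutants had 5.86, 6.48 and 5.68, against 3.30, 1.19 and 1.32 in wild type, and on day 6 they had 13.4, 15.5 and 12.6, against 3.56, 3.87 and 6.26 in wild type. No values overlapped on these 2 days, and the log2 changes were 1.52 and 1.53 (SE 0.29 each, adjusted p = 0.00043 and 0.00029). Wnt11 rose between day 4 and day 6 in mutants by 2.72 and in wild type by 1.79. On day 6 the 7 cardiac progenitor markers summed to 694 to 773 scaled RPKM in mutants and 218 to 418 in wild type. Most of that sum was Hand1, at 574 to 640 in mutants and 205 to 344 in wild type. Hand1 was already at 55.3 to 67.6 in mutants and 133 to 201 in wild type on day 3. The 6 fibroblast markers summed to 78.6 to 153 in mutants and 15.7 to 46.2 in wild type on day 6. Most of this was Col1a1, at 60.7 to 111 in mutants and 13.6 to 30.4 in wild type. The part of either marker set in the Wnt11 and Wnt5a differences was not tested.

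Wnt2 (chr6:17985474-18032772), a ligand of early heart and lung mesoderm, appeared late in both genotypes. Its day 6 levels were 7.80, 17.4 and 14.4 scaled RPKM in mutants, against 0.617, 2.43 and 14.6 in wild type. Wild-type replicate 3, which held red cell and fibroblast transcripts, reached the level of the mutants, and the ranges overlapped. Every mutant day 6 library held such transcripts too, with Col3a1 at 5.91, 20.7 and 4.96 and Lum at 2.89, 13 and 4.42. The part of these transcripts in the Wnt2 levels was not tested. The log2 change was 1.83 (SE 0.54, adjusted p = 0.014), and the call did not hold without wild-type day 6 replicate 1 (0.97, adjusted p = 0.13), without wild-type replicate 2 (1.67, adjusted p = 0.066), without mutant replicate 2 (1.60, adjusted p = 0.065) and in a fit of just the 6 libraries involved (adjusted p = 0.21). Without wild-type replicate 3 it was 2.85 (adjusted p = 8.4e-06). Between day 4 and day 6 Wnt2 rose by 4.0 in mutants (adjusted p = 5.8e-06) and by 2.54 in wild type (adjusted p = 0.0015). The wild-type rise was 1.52 without wild-type day 6 replicate 3 (adjusted p = 0.0093), and its adjusted p was 0.11 in a fit of just the 6 libraries involved.

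Wnt6, Wnt7a and Wnt7b, ligands known from surface epithelia, were lower in mutants on day 3. For Wnt7b (chr15:85535437-85581821) the mutant libraries had 0.851, 0.810 and 1.30 scaled RPKM on day 3, against 3.68, 6.95 and 6.88 in wild type. On day 4 they had 2.17, 1.95 and 1.38, against 5.58, 7.42 and 8.31 in wild type, and on day 5 they had 2.54, 3.03 and 3.28, against 7.11, 6.97 and 7.54 in wild type. The genotypes stayed apart at all stages from ESCs to day 6. The log2 changes were -2.06, -1.70 and -1.17 on days 3, 4 and 5 (SE 0.19 each, adjusted p = 6.2e-08, 5.8e-07 and 6e-05). On day 6 the change was -0.78 (adjusted p = 0.0027) and was not called, at 4.40, 4.81 and 4.42 in mutants against 6.68, 9.33 and 8.68 in wild type. The average over stages was -1.19 (SE 0.08, adjusted p = 4.4e-11). In mutants Wnt7b rose between day 4 and day 6 by 1.13 (adjusted p = 6.4e-05), against a change of 0.20 (adjusted p = 0.52) in wild type. The mutant step was 0.98, under the size threshold, with a pseudocount of 1 and without mutant day 4 replicate 3, a library with heart transcripts. Whether the Wnt7b difference depended on stage was tested with an adjusted p of 4.8e-05.

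Wnt7a (chr6:91363981-91411353) had 0.285, 0.425 and 0.438 scaled RPKM in mutants on day 3, against 2.21, 1.78 and 1.68 in wild type, with no overlap and a log2 change of -1.43 (SE 0.16, adjusted p = 9.1e-07). On day 6 the levels overlapped, at 2.07, 1.85 and 1.48 in mutants and 2.27, 1.36 and 1.14 in wild type. Wnt6 (chr1:74754342-74785322), the most abundant ligand of the later stages, had 5.98, 7.57 and 7.77 in mutants on day 3, against 27.1, 22.5 and 19 in wild type. These ranges did not overlap either, and the log2 change was -1.61 (SE 0.49, adjusted p = 0.025). The Wnt6 call had an adjusted p of 0.062 without a filter, and from 0.062 to 0.09 without mutant replicate 1 or 2 or without wild-type replicate 1 or 2. From day 4 on the Wnt6 ranges overlapped, and on day 6 they were 28.4 to 73.0 in mutants and 18.5 to 61.7 in wild type. On day 3 the 6 trophoblast markers, which include keratins of simple epithelia, summed to 286 to 440 scaled RPKM in mutants and 958 to 1110 in wild type. Most of that sum was Krt8, at 278 to 430 in mutants and 917 to 1060 in wild type. Krt7 lay at 3.31 to 4.33 in mutants and 14.6 to 19.7 in wild type. Ascl2 lay at 1.41 to 1.82 in mutants and 11.3 to 23.4 in wild type, and Tfap2c at 2.17 to 3.11 and 8.86 to 12.6. The ranges of Cdx2 overlapped, at 0.521 to 1.75 in mutants and 0.355 to 0.812 in wild type. Elf5 reached at most 0.00581 in mutants and 0.00975 in wild type. The part of these markers in the lower Wnt6, Wnt7a and Wnt7b was not tested.

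Wnt8a (chr18:34542327-34548061), a ligand of the primitive streak, was transient in both genotypes with its highest level on day 3. In mutants it had 19.5, 22.7 and 13.9 scaled RPKM on that day, against 4.27, 5.65 and 9.96 in wild type. The groups did not overlap (change of 1.48 in log2, SE 0.39, adjusted p = 0.0099). The call did not hold without mutant day 3 replicate 2 (1.33, adjusted p = 0.056), without wild-type day 3 replicate 1 (1.23, adjusted p = 0.066) and with a pseudocount of 0.1 (adjusted p = 0.058). In mutants Wnt8a fell already from day 3 to day 4, by 2.52 on the log2 scale (adjusted p = 4e-05), to 4.74, 4.05 and 0.982, and in wild type the same step was -0.70 (adjusted p = 0.33), to 4.57, 3.00 and 3.55. Between day 4 and day 6 it fell in both genotypes, by 2.43 in mutants and by 2.19 in wild type. Mutants lay below wild type on day 5, at 0.72, 0.784 and 0.0864 against 2.73, 0.834 and 0.901. They did so on day 6 too, at 0.165, 0.104 and 0.0612 against 0.525, 0.283 and 0.447. Neither day had overlap, and neither difference was called. The stage dependence of the mutant difference had an adjusted p of 0.0084. The 5 primitive streak markers summed to 84.2 to 234 in mutants and 12.7 to 134 in wild type on day 3. The sum of 12.7 belonged to wild-type replicate 1, the library with the lowest wild-type Wnt8a that day. The part of these markers in the Wnt8a difference was not tested.

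**Figure D4:**
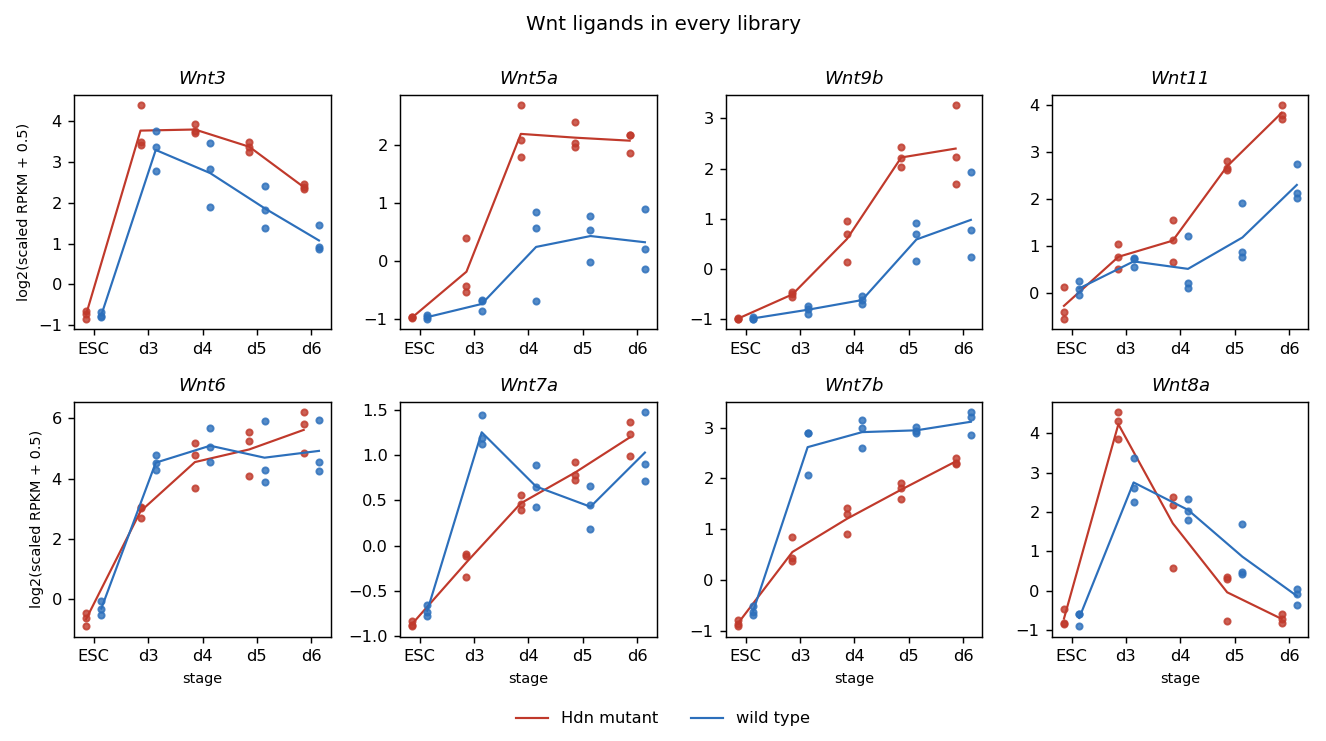
Each panel shows 1 ligand, with stage on the x axis (ESC and days 3 to 6) and log2(scaled RPKM + 0.5) on the y axis; each point is a library and lines join the means of 3 libraries. Mutants are in red, to the left of wild type in blue. Wnt3, Wnt5a, Wnt9b and Wnt11 are above wild type on days 5 and 6, Wnt7b is below it from day 3 on, and Wnt6, Wnt7a and Wnt8a differ most on day 3.

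The other 3 tested ligands, Wnt4, Wnt5b and Wnt9a, were called in no mutant comparison. Wnt4, a ligand of kidney and gonad development, averaged 11 in mutants and 19.9 in wild type on day 3 (scaled RPKM), without overlap but with a log2 change of -0.83 (adjusted p = 0.013). Wnt9a had a change of -0.67 on day 3 (adjusted p = 0.024). Wnt5b lay between -0.07 and 0.72 at the 5 stages with adjusted p of 0.16 or more. The remaining 6 ligands lay below the filter. Among them, Wnt3a, a canonical ligand of the streak and tail bud, was at 0.330, 0.0424 and 0.0938 in mutant ESCs and at 1.29, 1.20 and 0.986 in wild-type ESCs, and Wnt1 reached 3.54 and 5.69 in wild-type replicate 1 on days 5 and 6 and at most 0.923 in a mutant library. Wnt2b, Wnt10a and Wnt10b reached at most 0.714, 0.281 and 0.662 in mutant libraries and 0.409, 1.01 and 0.385 in wild-type libraries. Wnt16 stayed at or under 0.0361 in every library.

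The Frizzled receptors changed their make-up between ESCs and day 3. Fzd10 made up 50.2% of the summed Frizzled RNA in mutant ESCs and 59.6% in wild-type ESCs, and from day 3 on Fzd2 made up 73.9% to 84.7% in mutants and 76.8% to 84.1% in wild type on average. In mutants Fzd10 (chr5:128601106-128604093) had 5.11, 4.81 and 5.62 scaled RPKM on day 3, against 49.7, 23.6 and 24.1 in ESCs. In wild type it had 5.00, 4.55 and 7.75 on day 3, against 62.5, 66.7 and 51.6 in ESCs. Day 3 lay below ESCs in every library of both genotypes. It fell by 2.45 on the log2 scale in mutants and by 3.30 in wild type (SE 0.27 each, adjusted p = 2.7e-08 and 1.7e-10). Fzd5, a receptor of the early embryo, had 1.90, 1.87 and 1.13 in mutants on day 3, against 19.6, 12.9 and 13.8 in mutant ESCs, and 1.73, 1.23 and 1.46 in wild type on day 3, against 13.4, 15.0 and 12.3 in wild-type ESCs. It fell by 2.90 in mutants and by 2.84 in wild type (SE 0.18 each, adjusted p = 6.5e-13 and 1.2e-12). Fzd9 fell from day 3 to day 4 in mutants by 1.54 (SE 0.33, adjusted p = 0.0013), to 0.599, 0.579 and 0.271 on day 4, against 3.33, 2.06 and 1.78 on day 3, and in wild type the step was -0.79 (adjusted p = 0.16). The mutant ESC values of Fzd10 lay below all wild-type values, with a log2 change of -0.96 (adjusted p = 0.0064) that was not called.

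Fzd2 (chr11:102604431-102608058), which binds Wnt3 and Wnt5a, was lower in mutant ESCs. It stood at 4.72, 2.45 and 2.30 scaled RPKM there, against 11.2, 11.4 and 8.96 in wild-type ESCs. The groups did not overlap (change of -1.65 in log2, SE 0.37, adjusted p = 0.00093). By day 3 Fzd2 had risen by 4.45 in mutants and by 3.10 in wild type (adjusted p = 1.6e-10 and 9.4e-08), to 86.3, 76.9 and 67.2 in mutants and 90.9, 88.8 and 101 in wild type. The mutant libraries had 179, 190 and 117 on day 5, against 133, 42.2 and 64.5 in wild type, which overlap. It was called higher there with a log2 change of 1.15 (adjusted p = 0.03), and the call did not hold without wild-type day 5 replicate 2 (0.77, adjusted p = 0.22), without wild-type replicate 3 or mutant replicate 1 or 2 (adjusted p from 0.096 to 0.11), without a filter (0.069), when all libraries were set to 1 sum (0.07) and in a fit of just the 6 libraries involved (0.14). On day 6 the values did not overlap, at 154, 130 and 142 in mutants against 77.6, 67.5 and 69.8 in wild type, and the change of 0.98 (adjusted p = 0.055) was not called. The dependence on stage had an adjusted p of 0.00084.

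Fzd4 and Fzd1 came up late and were higher in mutants. Fzd4 (chr7:89404366-89410110), the receptor of the non-Wnt ligand norrin in blood vessels, had 2.17, 2.66 and 3.47 scaled RPKM in mutants on day 5, against 0.444, 1.00 and 1.32 in wild type. On day 6 it had 4.42, 3.11 and 3.90 in mutants, against 0.937, 1.40 and 2.2 in wild type. There was no overlap on either day, and the log2 changes were 1.23 and 1.14 (SE 0.28 each, adjusted p = 0.0024 and 0.0038). They fell under the size threshold, at 0.92 to 0.98, with a pseudocount of 1 and without replicate 1 of wild type on the same day. On day 4 Fzd4 stood at 1.42 in mutant replicate 3, which held heart transcripts, beside 0.258 and 0.317 in replicates 1 and 2. Mutant day 5 replicate 3, at 3.47, and every mutant day 6 library held such transcripts too. The part of these transcripts in the Fzd4 difference was not tested. Fzd1 (chr5:4753839-4758216) had 6.52, 4.81 and 4.14 in mutants on day 6, against 1.62, 1.41 and 2.67 in wild type. Its log2 change was 1.25 with no overlap (SE 0.21, adjusted p = 7.4e-05), and on days 4 and 5 it was 0.81 and 0.98, under the size threshold with adjusted p of 0.0066 and 0.0013.

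Lrp5 (chr19:3584825-3686585), a co-receptor, was at 14.5, 7 and 7.23 scaled RPKM in mutant ESCs, against 20.8, 20.5 and 15.2 in wild-type ESCs. The values did not overlap, but mutant replicate 1 lay close to the lowest wild-type library. The log2 change of -1.01 (SE 0.35, adjusted p = 0.021) was lost under 8 alternatives, among them no scaling (-0.86, adjusted p = 0.063), all libraries set to 1 sum (-0.86, adjusted p = 0.10) and leaving out mutant replicate 2 or 3 or wild-type replicate 1 or 2 (-0.83 to -0.94, adjusted p from 0.066 to 0.11). Lrp6, its partner gene, had a change of 0.71 in ESCs (adjusted p = 8.3e-05), at 2.46 ± 0.0808 in mutants and 1.31 ± 0.143 in wild type, which was not called. Fzd5, Fzd6, Fzd7, Fzd8, Fzd9, Fzd10 and Lrp6 were called in no mutant comparison, and Fzd3 stayed at or under 0.605 in every library.

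R-spondins amplify Wnt signals by sparing Frizzled receptors from degradation. Rspo3 (chr10:29453106-29535867), the R-spondin of the early mesoderm and of blood vessel development, peaked on day 4 in both genotypes. Its day 4 values were 9.06, 11.2 and 10.5 scaled RPKM in mutants, against 0.713, 4.25 and 5.52 in wild type, without overlap. The log2 change was 1.72 (SE 0.40, adjusted p = 0.0032), and 0.13 was the adjusted p in a fit of just the 6 libraries involved. On day 3 it was 0.701, 0.953 and 1.95 in mutants against 0.0247, 0.301 and 0.372 in wild type, which differ by 1.18 on the log2 scale (adjusted p = 0.046). That call did not hold without mutant day 3 replicate 2 or 3, without any 1 wild-type day 3 library (changes of 0.88 to 1.32, adjusted p from 0.061 to 0.20), with quantile normalization (adjusted p = 0.053), with a pseudocount of 1 (0.093) and without a filter (0.11). From day 3 to day 4 Rspo3 rose by 2.72 in mutants and by 2.19 in wild type, where the adjusted p was 0.086 in a fit of just the 6 libraries involved. Between day 4 and day 6 it fell by 2.66 in mutants (adjusted p = 2.3e-05) and by 1.43 in wild type (adjusted p = 0.013). The wild-type fall had an adjusted p of 0.068 to 0.12 without wild-type day 4 replicate 2 or 3 or day 6 replicate 1, and 0.18 in a fit of just the 6 libraries involved.

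Rspo1 rose from ESCs to day 3 by 1.95 in mutants and by 1.69 in wild type (adjusted p = 2.3e-06 and 1.7e-05) and was called in no mutant comparison. Rspo4 reached 1.00 scaled RPKM in a mutant library and at most 0.435 in wild type. Rspo2 and the R-spondin receptor Lgr5 stayed under 0.09 in all libraries.

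The secreted inhibitors were most abundant in ESCs, where Sfrp1 and Notum made up 69.7% and 25.1% of their sum in mutants and 59.4% and 38% in wild type. Sfrp1 (chr8:23411383-23449632), which binds Wnt proteins, had 3.81, 3.88 and 2.26 scaled RPKM in mutants on day 3, against 71.6, 77.1 and 76.1 in mutant ESCs. In wild type it had 6.12, 2.38 and 2.85 on day 3, against 87.2, 98.9 and 82.2 in ESCs. It fell by 4.33 on the log2 scale in mutants and by 4.49 in wild type (SE 0.32 each, adjusted p = 1.7e-11 and 1.1e-11). From day 3 to day 4 Sfrp1 rose in mutants by 1.93 (adjusted p = 0.0001), to 15.0, 17.6 and 9.82, and in wild type the step was 0.91 (adjusted p = 0.09), to 5.49, 6.46 and 9.65.

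Notum (chr11:120653788-120661193), an enzyme that inactivates Wnt proteins and is itself a canonical target, was the member with the largest fall at the exit from the ESC state. In mutants it had 0.113, 0.149 and 0.223 scaled RPKM on day 3, against 34.2, 23 and 24.3 in ESCs. In wild type it had 1.44, 0.281 and 0.347 on day 3, against 60.8, 59.9 and 51.1 in ESCs. Notum fell by 5.37 on the log2 scale in mutants, and in wild type it fell by 5.73 (SE 0.30 each, adjusted p = 7.6e-14 and 3e-14). In ESCs Notum was lower in mutants without overlap (log2 change -1.08, adjusted p = 0.0048), and the size dropped under 1 (-0.92 to -0.97) with no scaling, when all libraries were set to 1 sum, with quantile normalization and without mutant replicate 2. On day 5 it was higher in mutants, at 3.06, 2.41 and 1.96 in mutants against 0.737, 1.02 and 0.997 in wild type (1.06, adjusted p = 0.012). That call did not hold without mutant day 5 replicate 1 (0.92, adjusted p = 0.066), without wild-type day 5 replicate 1 (0.96) and with a pseudocount of 1 (0.85). The stage dependence of the mutant difference had an adjusted p of 0.00078.

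Dkk1 (chr19:30545876-30549496), which blocks Lrp5 and Lrp6 and is induced by Wnt signals, reversed its difference during the course. On day 3 it had 2.25, 2.67 and 3.99 scaled RPKM in mutants, against 14.1, 14.6 and 9.74 in wild type. On day 4 the ranges overlapped, at 19.7, 26.8 and 33.9 in mutants and 21.4, 17.7 and 17.5 in wild type. Mutants then had 43.7, 39.8 and 45.2 on day 5, against 23.6, 17.7 and 21.4 in wild type, and 38.2, 39.4 and 40.0 on day 6, against 17, 15 and 16.3 in wild type. It was thus lower in mutants on day 3 (log2 change -1.95, SE 0.18, adjusted p = 6.2e-08) and higher on days 5 and 6 (1.03 and 1.26, adjusted p = 0.00013 and 8.3e-06), without overlap on these 3 days. Among the members it had the smallest p for a difference that depends on stage (adjusted p = 2.4e-08). The day 5 size dropped just under 1, to 0.92 to 0.99, without wild-type replicate 2, without mutant replicate 3, without scaling, at the same sum and without the libraries with heart transcripts, each with an adjusted p of 0.0019 or less. The rise of Dkk1 came between ESCs and day 3 in wild type, by 3.19 (adjusted p = 9.2e-14), and between day 3 and day 4 in mutants, by 2.98 (adjusted p = 7.8e-11). In mutants the step from ESCs to day 3 was 1.0 (adjusted p = 2.2e-05), just short of the size threshold before rounding.

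Dkk3 (chr7:112116019-112159482), a secreted member of the Dickkopf family whose effect on Wnt signals is debated, was higher in mutants at every stage except day 3. In mutant ESCs it had 1.57, 2.00 and 2.34 scaled RPKM, against 0.718, 0.601 and 0.651 in wild-type ESCs (a change of 1.08 in log2 with SE 0.13, adjusted p = 4.1e-07). On day 4 mutants had 2.28, 2.38 and 2.45, against 0.656, 0.576 and 0.658 in wild type (1.34, adjusted p = 1e-07), and on day 5 they had 4.98, 5.27 and 5.63, against 1.31, 1.44 and 1.41 in wild type (1.62, adjusted p = 6e-09). On day 6 mutants had 8.22, 8.58 and 7.56, against 2.31, 2.42 and 3.85 in wild type (1.39, adjusted p = 3.7e-08). On day 3 the ranges overlapped, at 0.402 to 0.501 in mutants and 0.322 to 0.449 in wild type, and the stage dependence had an adjusted p of 9e-06. The ESC change fell to 0.83 with a pseudocount of 1, 0.91 with quantile normalization and 0.98 without mutant replicate 3. Mutant day 4 replicate 3 and day 5 replicate 3, which hold heart transcripts, lay at 2.45 and 5.63. The mutant libraries without them lay at 2.28 and 2.38 on day 4 and at 4.98 and 5.27 on day 5. On day 6 every mutant library held heart transcripts. Their part in the Dkk3 difference was not tested.

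Among the other inhibitors, Sfrp2 rose from ESCs to day 3 by 2.72 in mutants and by 2.11 in wild type (SE 0.54 each, adjusted p = 8.7e-05 and 0.0013). In mutants it fell again from day 3 to day 4, to 4.03, 4.62 and 1.42 scaled RPKM on day 4, against 14.2, 14.4 and 5.72 on day 3 (-1.65, adjusted p = 0.025). That fall was lost without mutant day 4 replicate 3, a library with heart transcripts (-1.20, adjusted p = 0.14), without mutant day 3 replicate 1 or 2 (adjusted p = 0.098 and 0.11), in a fit of just the 6 libraries involved (0.082) and without a filter (0.059). Sfrp5 rose between day 4 and day 6 by 3.17 in mutants, to 9.95, 7.67 and 16 scaled RPKM on day 6, and by 2.67 in wild type, to 9.01, 12.5 and 7.07 (SE 0.44 each, adjusted p = 9.1e-06 and 0.00011). Sfrp1, Sfrp2 and Sfrp5 were called in no mutant comparison. Dkk2, Dkk4 and Sfrp4 lay below the filter; Sfrp4 was at 0.754 to 1.29 in mutant ESCs and 0.452 to 0.486 in wild-type ESCs, and Dkk2 was at 0.558 to 2.53 in mutants and 0.0381 to 0.7 in wild type on day 6.

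**Figure D5:**
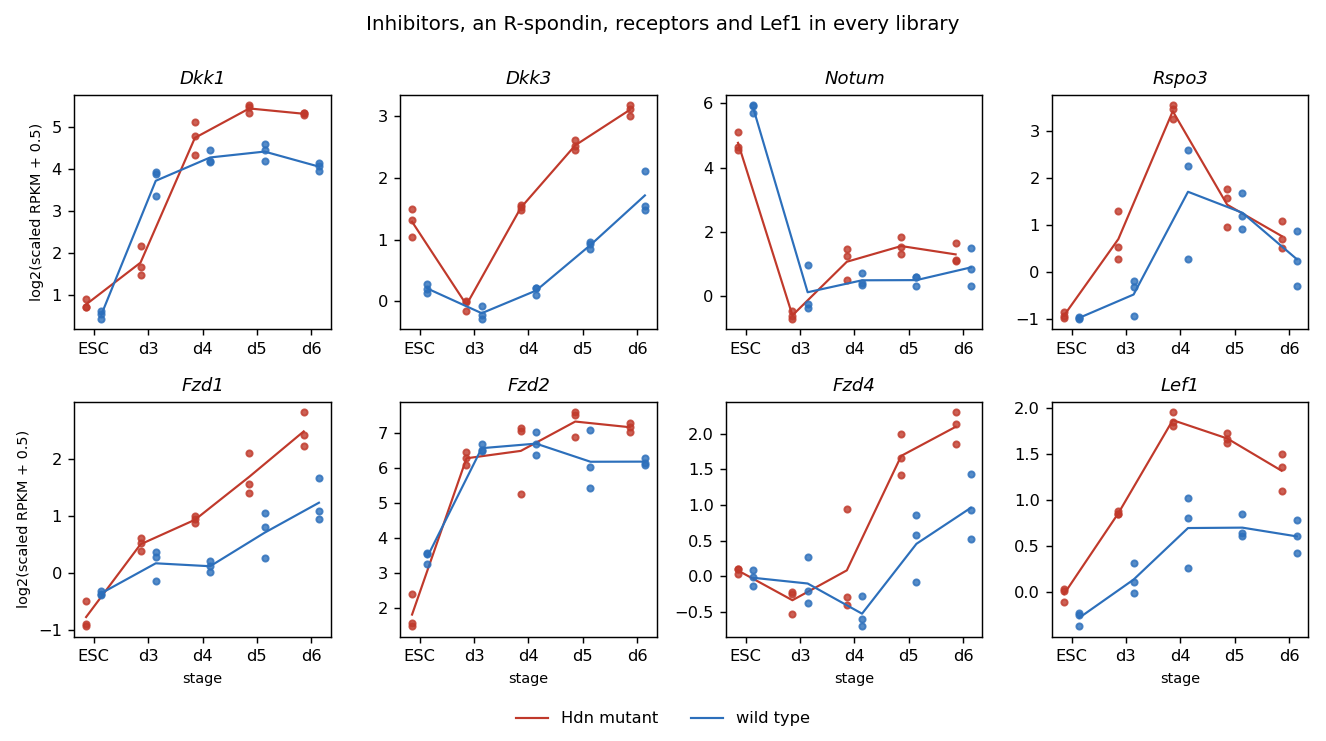
Each panel shows 1 gene, with stage on the x axis (ESC and days 3 to 6) and log2(scaled RPKM + 0.5) on the y axis; each point is a library and lines join the means of 3 libraries. Mutants are in red, to the left of wild type in blue. The Dkk1 lines cross between day 3 and day 4, Dkk3 is apart in all stages but day 3, and Notum drops steeply after the ESC stage in both genotypes.

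Axin2 and Sp5, feedback targets that beta-catenin activates in many tissues, are shown here by their promoters because both fell between ESCs and day 3 in both genotypes. The windows run from 250 bases before to 50 bases after a RefSeq gene start (GRCm38.p6, plus strand, chr2:70474673-70474972 for Sp5 and chr11:108920099-108920398 for Axin2). Capitals mark CTTTGAT, a core motif of TCF and LEF factors, searched on both strands.
Sp5: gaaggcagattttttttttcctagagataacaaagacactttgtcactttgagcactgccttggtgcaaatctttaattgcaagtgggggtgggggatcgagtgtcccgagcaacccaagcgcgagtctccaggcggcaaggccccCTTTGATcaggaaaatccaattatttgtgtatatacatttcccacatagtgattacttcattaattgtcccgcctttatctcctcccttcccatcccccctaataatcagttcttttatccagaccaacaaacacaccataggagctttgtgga
Axin2: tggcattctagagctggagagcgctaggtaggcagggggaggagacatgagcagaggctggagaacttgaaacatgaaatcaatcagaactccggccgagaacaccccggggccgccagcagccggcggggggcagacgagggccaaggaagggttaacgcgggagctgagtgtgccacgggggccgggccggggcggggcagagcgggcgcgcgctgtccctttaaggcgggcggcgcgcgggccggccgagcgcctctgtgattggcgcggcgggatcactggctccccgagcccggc
The Sp5 window holds the motif once, starting 104 bases before the gene start, and the Axin2 window shown has no match. Of the 38 windows listed for 31 members, 3 hold it, those of Sp5, Wnt11 and Wnt5b, beside 3.73% of all 32851 windows in the table. A match is a description of the letters in these windows only.

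In mutants Axin2 had 3.26, 3.09 and 2.68 scaled RPKM on day 3, against 20.8, 12.1 and 12.9 in ESCs, and in wild type it had 2.83, 1.85 and 3.13, against 20.2, 23 and 16.1 in ESCs. It fell without overlap by 2.13 on the log2 scale in mutants and by 2.71 in wild type (SE 0.24 each, adjusted p = 2.7e-08 and 4.6e-10). In mutants Sp5 (chr2:70474923-70477726) had 3.91, 4.46 and 17.2 on day 3, against 62.9, 16.1 and 14.8 in ESCs, and in wild type it had 5.58, 8.79 and 19.9, against 66.2, 75.6 and 43.4 in ESCs. It fell by 1.79 in mutants, where the stages overlapped, and by 2.53 in wild type (SE 0.71 each, adjusted p = 0.028 and 0.0029). The mutant fall was lost without mutant ESC replicate 1 (-1.13, adjusted p = 0.19), which stood at 62.9 beside 16.1 and 14.8 in its fellow replicates, without mutant day 3 replicate 1 or 2 (adjusted p = 0.11 and 0.098), in a fit of just the 6 libraries involved (0.057) and without a filter (0.052). Nkd1, a cytoplasmic inhibitor and target, went the other way and rose by 1.57 in mutants and by 1.69 in wild type. Axin2, Sp5, Nkd1 and Tcf7 were called in no mutant comparison. For Axin2, Sp5 and Tcf7 in ESCs, mutant replicates 2 and 3 lay below every wild-type library, and mutant replicate 1 lay within the wild-type range. The ESC values of Tcf7 were 33.9, 18.6 and 20.9 in mutants, against 33.4, 35 and 26.9 in wild type.

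Lef1 (chr3:131110297-131224357), a nuclear partner of beta-catenin, was higher in mutants on day 4. It had 3.01, 3.38 and 3.10 scaled RPKM there, against 0.706, 1.25 and 1.53 in wild type, and the change was 1.17 in log2 (SE 0.14, adjusted p = 2.3e-06). The mutant values exceeded all wild-type values at each of the 5 stages, and on days 3, 5 and 6 the changes were 0.72, 0.97 and 0.71 with adjusted p of 0.00094, 2.2e-05 and 0.00048, under the size threshold. The day 4 change was 0.96 without wild-type day 4 replicate 1 and with a pseudocount of 1. Tcf7, a related factor, averaged 28.7 in mutants and 17.4 in wild type on day 4, and 18.4 in mutants and 10.9 in wild type on day 5, with changes of 0.68 and 0.80 (adjusted p = 0.046 and 0.02) that were not called. The Axin2 changes were 0.20, 0.30, 0.63 and 0.49 on days 3 to 6, with adjusted p of 0.064 or more.

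Further genes of the pathway were read from a separate list of secretion factors, receptors, inhibitors, transduction proteins, nuclear co-factors, planar polarity genes and other targets, of which 77 were in the table and 64 were tested. In mutants against wild type, 1 was higher and 3 were lower in ESCs, 1 higher and 4 lower on day 3, 9 higher and 2 lower on days 4 and 5, and 8 higher and 3 lower on day 6. As shares of the 64, these were 1.56% and 4.69% in ESCs (8.55% and 3.13% of all genes), 1.56% and 6.25% on day 3 (0.873% and 2.48%), 14.1% and 3.12% on day 4 (2.37% and 2.81%) and on day 5 (2.42% and 3.59%), and 12.5% and 4.69% on day 6 (3.66% and 4.12%). Porcn, the enzyme that puts the lipid on Wnt proteins, was lower in mutant ESCs, at 1.97 ± 1.12 in mutants against 8.68 ± 0.891 in wild-type ESCs (a change of -1.98 in log2 with SE 0.28, adjusted p = 4.7e-06), and Apc, a scaffold of the destruction complex, was higher, at 2.78 ± 0.543 in mutants against 0.726 ± 0.0328 in wild type (1.41, SE 0.13, adjusted p = 1e-08). Prickle1, a planar polarity gene, was higher on days 3 and 4, with 16.8 ± 2.29 in mutants against 4.57 ± 1.49 in wild type on day 3. Igfbp4, a secreted protein that binds Frizzled and Lrp6 and inhibits canonical signalling in the heart, was higher on days 4, 5 and 6, with 162 ± 14.4 in mutants against 53.0 ± 15.0 in wild type on day 6 (1.64, SE 0.21, adjusted p = 2.5e-06). Reck, a receptor partner for Wnt7 ligands in brain vessels, was higher on days 4, 5 and 6. Its day 4 change of 1.01 lay just past the size threshold. On day 6 it had 5.76 ± 1.01 in mutants against 1.75 ± 0.335 in wild type. Dkkl1, a Dickkopf-like secreted protein, was lower from day 3 to day 6, with 16.6 ± 3.74 in mutants against 123 ± 39.8 in wild type on day 6 (-2.81, SE 0.31, adjusted p = 3.3e-07). Ctnnb1, which encodes beta-catenin, was called at no stage, with changes of -0.20 to 0.31 (adjusted p of 0.29 or more); it was added as the central protein of the pathway after its values were seen.

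The spans of several members overlap other genes in the RefSeq annotation, so that the reads assigned to them are uncertain to that extent. Besides Wnt3 with Wnt9b, these are Wnt2b with St7l, Wnt5b with Fbxl14, Fzd4 with Tmem135, Tcf7 with Skp1 and Lgr5 with A930009A15Rik, and other members overlap a non-coding gene or a pseudogene.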

How the data were processed

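The deposited RPKM were made by the authors from total RNA (ScriptSeq v2 libraries), as read counts normalised to gene length and library size. STAR, DESeq2 and mm10 are named per the submitters' processing notes, with tool versions, the gene annotation and the assignment of reads to genes and strands not given in the sources used here. The table holds 52636 genes, of which 52403 matched a symbol in the gene table used. Its 30 value columns were mapped to samples by title, and the chromosome conformation samples and the embryonic heart library were not analysed here. Each library was divided by a size factor (0.888 to 1.106), the median ratio over 11618 genes. These were above 0 in all libraries and had a mean RPKM of 1 or more. Read totals were inferred from the steps between low RPKM values of 492 short genes, and the values of all 49 members came out as whole reads within 0.02. Such read numbers cover counting error only.

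A gene was kept if 3 libraries or more reached 1 scaled RPKM. Its log2(scaled RPKM + 0.5), a scale that understates changes of low genes, entered a limma fit (version 3.58.1, in R 4.3.3) of all 30 libraries, which had a mean for each of the 10 groups and let the variance follow the level. The 12 comparisons were mutant against wild type at each stage and on average, and 3 time steps per genotype; dependence of the mutant difference on stage had an F test. The script was tested on simulated data. P-values were adjusted over all tested genes. Values in every library are given for members called in a mutant comparison, up to 6 per direction by adjusted p, and for up to 4 called members per direction and time step by size of change; of the other pathway genes, up to 3 per direction and mutant comparison could be named, and some of those were left out. The members, lists and named-gene rule were chosen with earlier results of these data known. Deviations from group means were correlated between libraries of the same replicate number. Of 33 such pairs, 17 were over 0.1, in a range of -0.57 to 0.51. In 1 of 11 comparisons, the wild-type step from day 4 to day 6, all 3 pairs were over 0.1 (0.22 to 0.51). In the steps after day 3, replicate 1 was at 0.35 to 0.51, replicate 2 at -0.11 to 0.44 and replicate 3 at 0.22 to 0.30. Some libraries of 1 number may thus be linked, and the main fit treats all libraries as independent. Promoters and gene spans came from RefSeq tables for GRCm38.p6, a patch release of GRCm38 (mm10). Alternatives were 3 other scalings, 2 pseudocounts, 2 filters, adjusted p alone, no trend, only the libraries compared, a replicate block, each library left out, and no libraries with heart transcripts.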

Additional observations from a re-analysis of the deposited data

Results flagged for a closer look

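The mutant difference depended on stage for 17 members, each by the limma F test with its adjusted p over all tested genes. That is 17 of the 36 tested members, beside 42.2% of all tested genes, so the count itself is near the background. Dkk1 had the smallest p (2.4e-08), lower in mutants on day 3 and higher on days 5 and 6. Dkk3 followed (9e-06), with its smallest difference on day 3. Among the ligands the adjusted p was 1e-05 for Wnt7a, 4.8e-05 for Wnt7b, 0.0012 for Wnt11, 0.0022 for Wnt5a, 0.0084 for Wnt8a, 0.014 for Wnt9b and 0.031 for Wnt3. Wnt7a differed on day 3 in particular, Wnt7b from day 3 to day 5, Wnt8a on day 3, and Wnt3, Wnt5a, Wnt9b and Wnt11 on later days. Among the receptors it was 0.00059 for Fzd1, 0.00084 for Fzd2, 0.013 for Fzd4 and 0.03 for Fzd5. Fzd2 was lower in mutant ESCs and higher on day 5. Notum (0.00078) was likewise lower in mutant ESCs and higher on day 5. Lef1 (0.0079), Tcf7 (0.034) and Rspo1 (0.042) complete the list, and of these Lef1 was called in a stage comparison, on day 4.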

How the results depend on the processing

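Of 116 calls of members over the 12 comparisons, 78 held under every alternative run, 26 were lost when 1 library was left out, 14 in a fit of just the libraries compared, and 0 under a replicate block; 0 changed direction. The fit without the mean-variance trend tested these calls little: by adjusted p alone it moved 8 to 35 genes across the threshold per comparison, 0 of them past the size threshold, and 40 genes in the stage test. With the replicate block, 9 members were higher and 0 lower on day 6, 9 higher and 1 lower on day 5, and 21 depended on stage. Counts of members that moved by over 1.5 times were these; the cause was not tested. In ESCs, higher in mutants: 0 with quantile normalization, 0 with a pseudocount of 1, 2 by adjusted p alone; lower: 1 without scaling, 5 with a pseudocount of 0.1, 5 by adjusted p alone. On day 3, higher: 1 with quantile normalization, with a pseudocount of 1 and without a filter. On day 4, higher: 3 with a filter of 5 and in a fit of just the libraries compared; lower: 2 by adjusted p alone. On day 6, higher: 5 with a filter of 5; lower: 2 by adjusted p alone. Averaged over stages, higher: 4 and 0 with pseudocounts of 0.1 and 1, 1 with a filter of 5, 15 by adjusted p alone; lower: 4 by adjusted p alone. In wild type from day 3 to day 4, higher: 3 with a pseudocount of 0.1, 2 by adjusted p alone; lower: 2 by adjusted p alone. From day 4 to day 6 in wild type, higher: 5 with a filter of 5 and in a fit of just the libraries compared; lower: 5 by adjusted p alone. In mutants, lower: 5 from day 3 to day 4 with a pseudocount of 0.1 and by adjusted p alone, and 6 from day 4 to day 6 by adjusted p alone. With a filter of 5, which tests fewer genes, 10 members depended on stage. With 1 library left out, counts ranged from 0 to 1 higher and 1 to 6 lower in ESCs (0 higher without mutant replicate 3; 6 and 1 lower without mutant replicates 1 and 2), from 0 to 2 higher on day 3 (0 without wild-type replicate 1 or mutant replicate 2), from 1 to 2 higher and 0 to 1 lower in wild type from day 3 to day 4, and from 3 to 5 lower in mutants from day 4 to day 6 (5 without mutant day 4 replicate 3). The median log2 change of all genes shifted by over 0.1 without scaling (0.14 in ESCs), with quantile normalization (0.15 in the mutant step from ESCs to day 3) and at the same sum (0.15 in ESCs, 0.11 on day 3, 0.12 in mutants from day 4 to day 6, and -0.24 in mutants and -0.20 in wild type from ESCs to day 3). Only day 6 of the mutant has no fit without the libraries with heart transcripts.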
